A study of Mus musculus with 16 samples.

Results

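Skin that lacked MCPIP1 in keratinocytes (called EKO below) was compared with control skin, and the 8 libraries of that comparison, 4 from EKO and 4 from Control mice, were taken from the 16 libraries of the series by group name. Every mouse was 12 weeks old and carried floxed Zc3h12a, the gene of MCPIP1. Control mice were Zc3h12a(loxP/loxP) with no Cre, and EKO mice were Zc3h12a(loxP/loxP)Krt14Cre(Tg/Wt), with Cre under the promoter of Krt14, a keratin gene of basal keratinocytes. The other 8 libraries came from MKO mice, Zc3h12a(loxP/loxP)LysMCre(Tg/Wt), in which Cre is expressed in myeloid cells, and from EMdKO mice, which were Zc3h12a(loxP/loxP) and carried LysMCre(Tg/Wt) as well as Krt14Cre(Tg/Wt). EMdKO against MKO adds Krt14-Cre in LysM-Cre carriers and shares no mouse with EKO against Control, so genes named from EKO were also read there. RNA came from whole skin, in which many cells never express Krt14-Cre, and was amplified by a targeted kit that gives a read count for each of 23930 transcript targets. In such bulk samples, fewer cells of a type and less RNA per cell cannot be told apart.

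MCPIP1, also named Regnase-1, is an endoribonuclease that cleaves mRNAs of inflammatory mediators and so limits how long they persist. Keratinocytes divide in the basal layer of the epidermis and move outward, switching from keratins 5 and 14 to keratins 1 and 10 and then to the proteins and lipids of the cornified layer. Stressed keratinocytes also release cytokines of the IL-1 and IL-36 families, antimicrobial peptides and protease inhibitors.

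The 8 libraries held 7182864 to 10924265 counts, and their 10 most abundant targets took 8.36 to 12.19% of them. Levels below are CPM (counts scaled by library size), listed for mouse 1 to mouse 4. A fold change is EKO over Control on the log2 scale ± its standard error from edgeR's quasi-likelihood fit (n = 4 and 4), and a gene was called changed at an adjusted p (Benjamini-Hochberg over the 13633 tested genes) under 0.05. The labelled tissue was checked against its markers. The summed level of 14 basal keratinocyte genes ranged over 7733 to 14706 CPM in Control and 7955 to 15393 CPM in EKO. Collagen and matrix genes summed to 31842 to 64676 CPM and 26054 to 47515 CPM, and skeletal muscle genes to 31930.0 to 60011 CPM and 34302 to 80127 CPM, so muscle RNA was present in every library.

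Some libraries stood apart from their group before any gene is considered. EKO mouse 1 held the highest skeletal muscle level of the 8 (80127 CPM summed over 19 genes) and resembled the controls in most epidermal genes described below. The part of its muscle RNA in those values was not tested, and a fit with the muscle level as a covariate called 8 genes. Control mouse 1 had the highest hair shaft level (the 24 genes summed to 160.3 to 32305 CPM across the Control mice), and Control mouse 2 the highest neutrophil, chemokine and type I interferon levels. The first principal component of the 8 libraries took 44.7% of the variance and did not separate the groups, with Control mouse 1 and Control mouse 4 at its ends. Results that rest on EKO mouse 1 are given with and without it. Values without it speak for EKO mice 2 to 4 and give no separate evidence, because that mouse stands out by the very genes tested.

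Zc3h12a itself was lower in every EKO mouse than in any Control mouse. Its level was 19.4, 21.7, 30.3 and 27.4 CPM in Control and 11.7, 7.07, 7.4 and 8.41 CPM in EKO, with EKO mouse 1 the highest of its group and the groups not overlapping. The log2 fold change was -1.52 ± 0.23, which did not pass over all genes (adjusted p = 0.082). It passed without EKO mouse 1 (-1.70 ± 0.24, adjusted p = 0.0018) and without MKO mouse 1 (-1.51, adjusted p = 0.0237). Taken as a single value, the difference in mean log2 CPM of -1.50 had a two-sided exact permutation p of 0.0286, the smallest that the 70 assignments of 4 against 4 mice can give. In EMdKO the level was 5.47, 5.69, 5.71 and 4.41 CPM against 17.1, 35, 29.2 and 24.8 CPM in MKO, and there the gene fell by 2.32 ± 0.24 (adjusted p = 0.000497). Neither the floxed exons nor the counted stretch of the transcript are given in the labels, so whether the amplicon lies in the deleted part is unknown.

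Over all genes no difference passed the test with 4 EKO mice. Of the 13633 genes, 0 were called by edgeR, a share of 0%, while 940 genes (6.9%) had an unadjusted p under 0.05, beside 682 that chance alone would give. Of these, 447 (3.28%) were higher and 493 (3.62%) lower in EKO. All 4 EKO mice lay above all 4 Control mice for 140 genes (1.03%) and below them for 168 genes (1.23%). Log2 fold changes were positive for 45.8% and negative for 54.2% of genes, with a median of -0.03 over all of them. DESeq2 called 47 genes higher (0.345%) and 4 lower (0.0293%), and limma-voom called 1 higher (0.00734%) and 3 lower (0.022%). Here and below, limma-voom gave each library its own quality weight, so the libraries did not count equally. With EKO mouse 1 left out, edgeR called 113 genes higher (0.821%) and 14 lower (0.102% of 13756), and 49 of the 51 DESeq2 calls and the 4 limma-voom calls were among these 127.

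The smallest p-values on the higher side belonged to the IL-36 cytokine genes Il1f6 and Il1f8 and the serpin gene Serpinb3a. IL-36 cytokines signal through the receptor Il1rl2 with its partner Il1rap to drive inflammatory gene expression in skin. Il1f6, which encodes IL-36 alpha, stood at 1.61, 1.73, 1.78 and 1.62 CPM in Control and at 0.516, 92.4, 79.5 and 79.3 CPM in EKO. EKO mice 2 to 4 were far above the controls and EKO mouse 1 was below all of them, so the groups overlapped. The log2 fold change was 5.21 ± 0.87 (adjusted p = 0.121), and without EKO mouse 1 it was 5.62 ± 0.29 (adjusted p = 4.51e-08). Il1f8, which encodes IL-36 beta, had 7.06, 6.9, 6.82 and 5.5 CPM in Control and 7.95, 74.4, 56.9 and 49.3 CPM in EKO. Here EKO mouse 1 was just above the controls, so the groups did not overlap (log2 fold change 2.84 ± 0.51, adjusted p = 0.154). Il1f9, which encodes IL-36 gamma, was at 39.5, 73.8, 69.1 and 83.6 CPM in Control and 58.5, 325, 252 and 301 CPM in EKO. EKO mouse 1 again lay within the Control range (log2 fold change 1.81 ± 0.42, adjusted p = 0.305). Il1f5, the receptor antagonist of the family, followed the ligands at 41.7, 31.6, 33.4 and 83 against 36.3, 165, 166 and 121 CPM (1.36 ± 0.39).

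The receptor genes had log2 fold changes near or below 0. Il1rl2 had 145, 169.9, 176 and 149.6 CPM in Control and 106, 124, 127 and 159.6 CPM in EKO (log2 fold change -0.31 ± 0.16), and Il1rap had 27.2, 40.6, 40.2 and 46.5 and 29.2, 44.4, 46.1 and 36.5 CPM (0.02 ± 0.18). The ranges of the groups overlapped for both. Over the 7 IL-36 genes the median log2 fold change was 1.36, beside -0.03 over all tested genes. Of the 7, 5 were positive and 2 negative, and the negative ones were Il1rl2 and Il1f10, another ligand gene of the list. At an unadjusted p under 0.05, 4 of the 7 were higher and 0 lower, and these 4 (Il1f5, Il1f6, Il1f8 and Il1f9) rose when EKO mouse 1 was left out.

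The promoters of 4 of the genes that stood out are shown because these genes were high together in EKO mice 2 to 4. Each is the 250 bases before the gene start in RefSeq on GRCm38.p6, written 5′ to 3′ on the gene's strand, and capitals mark matches to the AP-1 motif TGANTCA or the STAT motif TTCNNNGAA, searched on both strands together with the NF-kB consensus. Of the 12 genes with the smallest p on the higher side, 9 had a promoter in the RefSeq table.
Il1f8, chr2:24152922-24153171, plus strand: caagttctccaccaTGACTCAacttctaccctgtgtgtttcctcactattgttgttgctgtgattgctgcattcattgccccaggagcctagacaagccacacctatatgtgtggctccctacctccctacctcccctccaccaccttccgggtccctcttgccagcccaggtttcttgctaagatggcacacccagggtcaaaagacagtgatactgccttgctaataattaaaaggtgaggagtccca
Il1f9, chr2:24186226-24186475, plus strand: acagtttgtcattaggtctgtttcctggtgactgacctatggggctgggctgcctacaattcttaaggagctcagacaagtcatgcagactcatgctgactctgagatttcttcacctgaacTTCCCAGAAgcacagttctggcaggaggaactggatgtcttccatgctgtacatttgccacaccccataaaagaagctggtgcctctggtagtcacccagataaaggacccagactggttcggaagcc
Serpinb3a, chr1:107052304-107052553, minus strand: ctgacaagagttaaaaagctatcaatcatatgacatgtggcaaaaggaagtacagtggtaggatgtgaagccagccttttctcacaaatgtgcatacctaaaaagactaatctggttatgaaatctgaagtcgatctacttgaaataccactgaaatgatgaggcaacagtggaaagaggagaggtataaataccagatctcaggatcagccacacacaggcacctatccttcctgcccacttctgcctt
Stfa3, chr16:36455393-36455642, minus strand: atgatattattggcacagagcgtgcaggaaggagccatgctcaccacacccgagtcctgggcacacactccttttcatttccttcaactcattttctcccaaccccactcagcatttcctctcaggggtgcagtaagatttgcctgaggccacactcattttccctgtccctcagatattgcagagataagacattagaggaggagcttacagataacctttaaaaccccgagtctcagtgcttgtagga
The Il1f8 window held 1 AP-1 match, beginning 236 bases before the start, and the Il1f9 window 1 STAT match at 128 bases. The Serpinb3a and Stfa3 windows held no match to any of the 3 motifs. Among 32817 mouse promoter windows of this length, 6.75% held an AP-1, 7.01% a STAT and 3.9% an NF-kB match, so a single match in 1 window is common and describes the letters only.

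Clade B serpins and stefins are intracellular inhibitors of serine and cysteine proteases that keratinocytes make in the outer epidermis. Serpinb3a was near absent in control skin, with 1, 1, 3 and 0 counts, and reached 275, 504 and 172 counts in EKO mice 2 to 4 but 1 count in EKO mouse 1. In CPM these were 0.124, 0.144, 0.28 and 0 against 0.103, 24, 61.2 and 22.6. The fitted log2 fold change of 7.39 ± 1.28 (adjusted p = 0.121) is rough in size because so few control counts underlie it. Stfa3, a stefin, was 43, 47.3, 16.7 and 7.62 CPM in Control and 12.4, 721, 992 and 698 CPM in EKO (log2 fold change 4.41 ± 0.91). Serpinb12 was 10.03, 7.34, 22.4 and 16.9 CPM in Control and 10.5, 97, 126 and 174 CPM in EKO (2.84 ± 0.58). For both, EKO mice 2 to 4 lay above every control and EKO mouse 1 within the Control range. Serpinb3b (2.43 ± 0.56), Csta1 (1.20 ± 0.49) and Cst6 (0.90 ± 0.39), a cystatin of the cornifying epidermis, were the other 3 of 6 members at an unadjusted p under 0.05. Of 14 tested serpins and stefins, 13 had positive log2 fold changes, with a median of 1.00. Without EKO mouse 1, 4 rose (Serpinb3a, Serpinb3b, Serpinb12 and Stfa3). Copies of the Serpinb3, Stfa and Lce families are near identical, and how the authors' counting split reads among copies is not given in the sources used here, so the values of single copies are uncertain.

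**Figure D1:**
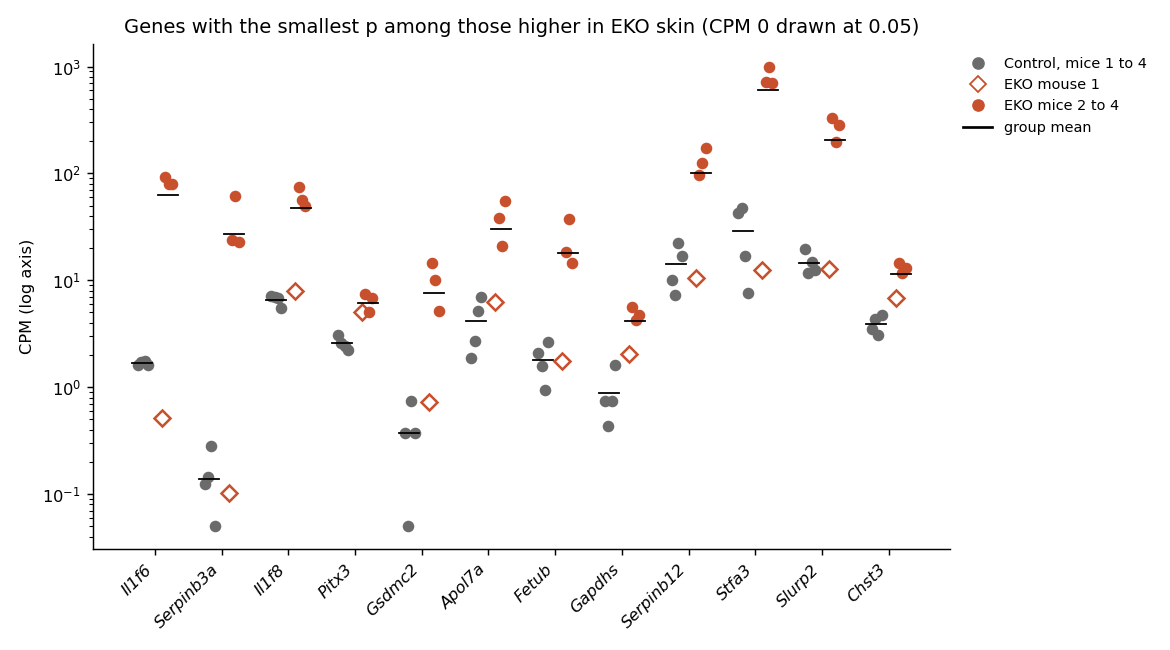
CPM (log axis) of the 12 genes with the smallest p among those with positive log2 fold change, for 4 Control mice (grey), EKO mouse 1 (open diamond) and EKO mice 2 to 4 (filled orange), with group means as bars. For Il1f6 the 3 filled points span 79.3 to 92.4 CPM while EKO mouse 1 lies at 0.516 CPM, below the controls.

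Among the other genes of that kind was Slurp2, a secreted Ly6-type protein of keratinocytes. Its level was 19.4, 11.7, 14.9 and 12.5 CPM in Control and 12.7, 328, 195 and 284 CPM in EKO (log2 fold change 3.81 ± 0.79, adjusted p = 0.205). Its relative Slurp1 gave 8.17, 11.9, 8.97 and 10.4 and 6.5, 62.2, 41.6 and 53.2 CPM (2.05 ± 0.49). EKO mouse 1 lay within the Control range for Slurp2 and below every control for Slurp1. Gsdmc2, of the gasdermin family of pore-forming proteins, was nearly silent in Control (0.372, 0, 0.747 and 0.375 CPM) and reached 14.7, 10.1 and 5.12 CPM in EKO mice 2 to 4, with 0.723 CPM in EKO mouse 1. Apol7a, of the apolipoprotein L family, measured 1.86, 2.73, 5.14 and 7 CPM in Control and 6.3, 38.5, 21.1 and 55.2 CPM in EKO (2.84 ± 0.55). Fetub, which encodes the protease inhibitor fetuin-B, measured 2.11, 1.58, 0.934 and 2.62 and 1.75, 18.2, 37.3 and 14.6 CPM (3.31 ± 0.67).
A few genes were higher in EKO mouse 1 as well. Pitx3, a homeobox transcription factor gene known from lens and midbrain, was 3.1, 2.59, 2.43 and 2.25 CPM in Control and 5.06, 7.5, 5.1 and 6.83 CPM in EKO (log2 fold change 1.24 ± 0.23). Chst3, a chondroitin sulfotransferase gene, was 3.47, 4.32, 3.08 and 4.75 and 6.81, 14.5, 11.6 and 13 CPM (1.56 ± 0.33), and Gapdhs, the sperm-type glyceraldehyde phosphate dehydrogenase, 0.743, 0.432, 0.747 and 1.62 and 2.06, 5.58, 4.25 and 4.73 CPM (2.21 ± 0.45). For these 3 genes no EKO value overlapped a Control value. By edgeR all 12 genes had adjusted p-values between 0.121 and 0.229 with 4 EKO mice, and all 12 rose when EKO mouse 1 was left out. DESeq2 with the same 4 EKO mice called all 12, with adjusted p from 4.66e-06 for Il1f6 to 0.00365 for Pitx3. Of the 12, limma-voom called Stfa3 alone (adjusted p = 0.0383).

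On the lower side, the 12 genes with the smallest p, Zc3h12a among them, had log2 fold changes between -1.92 and -0.49. Cxcl14, a chemokine that epithelia make without stimulation, stood at 185, 165, 148 and 179 CPM in Control and 119, 87.3, 90.04 and 67.7 CPM in EKO, with no overlap (log2 fold change -0.89 ± 0.23, adjusted p = 0.363). Rab3b, a small GTPase gene of secretory vesicles, was 6.19, 9.64, 7.47 and 12.4 CPM in Control and 5.78, 1.83, 0.971 and 1.45 CPM in EKO (-1.81 ± 0.43). EKO mouse 1 again lay nearest to the controls, though below all of them. Tox3, a high mobility group box gene, was 1.86, 2.3, 1.03 and 1.87 and 0.413, 0.611, 0.607 and 0.131 CPM (-1.92 ± 0.47), and here EKO mouse 1 was no higher than EKO mice 2 and 3. Few EKO counts underlie these Tox3 values, so the size of its fold change is rough. Fyn, a Src family kinase gene, was 39.3, 43, 31.7 and 34.1 and 29.5, 20.2, 22.3 and 13 CPM (-0.80 ± 0.21). The other 7 were Prrg3 (-0.96 ± 0.22), Nxpe4 (-1.01 ± 0.24), the adhesion receptor gene Adgrd1 (-0.77 ± 0.20), the Arf GTPase-activating gene Asap2 (-0.57 ± 0.15), Mob3b (-0.78 ± 0.20), the actin-capping tropomodulin gene Tmod2 (-0.64 ± 0.17) and the Rap exchange factor gene Rapgef2 (-0.49 ± 0.13).

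**Figure D2:**
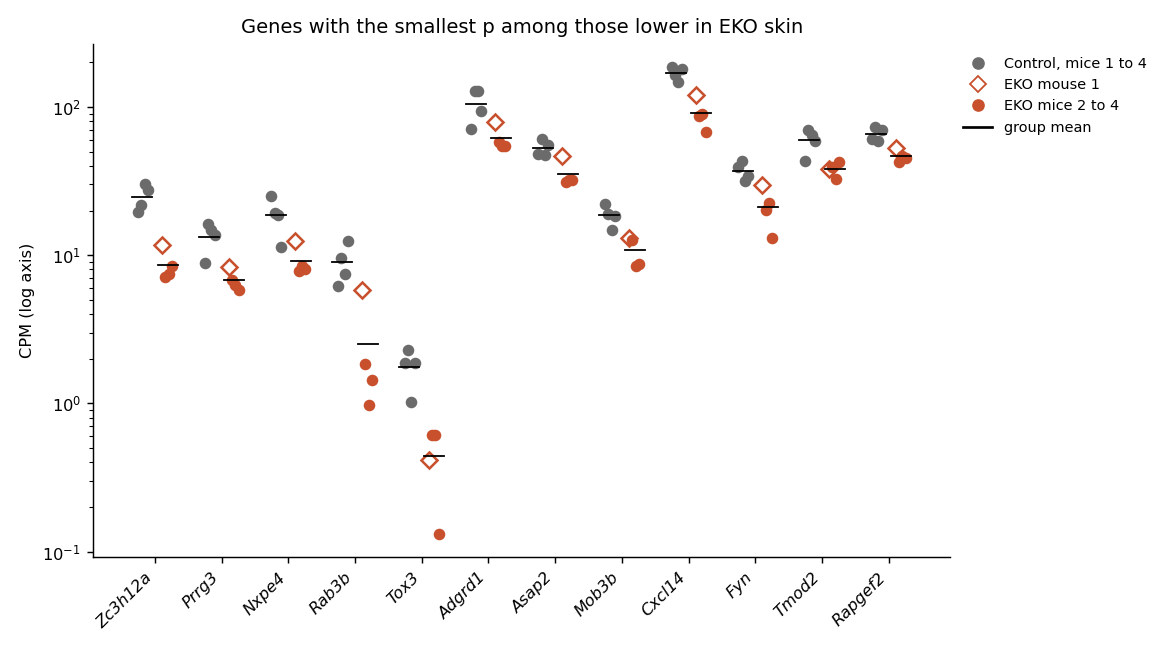
CPM (log axis) of the 12 genes with the smallest p among those with negative log2 fold change, for the same 8 mice and with group means as bars. EKO mouse 1 (open diamond) lies above EKO mice 2 to 4 for Zc3h12a, at 11.7 CPM against 7.07 to 8.41 CPM, and still below every control.

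Of these lower genes, edgeR without EKO mouse 1 called Zc3h12a, Prrg3, Nxpe4, Rab3b, Adgrd1, Asap2 and Fyn. It did not call Tox3, Mob3b, Cxcl14, Tmod2 or Rapgef2. Other genes that fell in that fit included Fgf2, the basic fibroblast growth factor gene (log2 fold change -1.14 ± 0.23, adjusted p = 0.0239). Fgf2 was 24.5, 38.8, 35.2 and 29.7 CPM in Control and 13.9, 10.3 and 19.6 CPM in EKO mice 2 to 4. Its level in EKO mouse 1 was 35.2 CPM, within the Control range. Penk, the proenkephalin gene, fell by 1.08 ± 0.22 (adjusted p = 0.0233) and Nptx1, a neuronal pentraxin gene, by 1.67 ± 0.34 (adjusted p = 0.0241). EKO mouse 1 held 65.9 CPM of Penk against 23.4 to 31.5 CPM in EKO mice 2 to 4, and 6.3 against 1.71 to 3.88 CPM of Nptx1.

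Of 10 IL-1, IL-18 and IL-33 ligands and receptors, 2 were higher and 4 lower at an unadjusted p under 0.05, and the median of -0.20 turned to 0.30 without Control mouse 2 and to 0.03 without EKO mouse 1. Il1a, an IL-1 ligand stored in keratinocytes, was 6.32, 6.04, 6.26 and 7.62 CPM in Control and 3.51, 32.4, 29.4 and 40.6 CPM in EKO (log2 fold change 2.01 ± 0.50). Il18 was 35.8, 47.6, 65.7 and 84.3 and 42, 151, 122 and 148 CPM (0.99 ± 0.32). Both ligands were higher in EKO mice 2 to 4 than in any control and not in EKO mouse 1, and both rose without EKO mouse 1 (adjusted p = 0.000803 and 0.0147). The 4 lower genes were receptors. Il1r1, the signalling receptor of IL-1, was 73.9, 97.1, 71.8 and 53 CPM in Control and 53.8, 43.1, 47 and 54.3 CPM in EKO (-0.58 ± 0.16), the decoy receptor gene Il1r2 was 80.4, 132, 170.1 and 164 and 106, 81.6, 93.6 and 105 CPM (-0.50 ± 0.22), and Il18r1, a receptor subunit for IL-18, was 12.4, 25.3, 21.5 and 27.4 and 10.3, 14.2, 12 and 8.67 CPM (-0.93 ± 0.30). Il1rl1, the receptor gene for IL-33, was 2.97, 19.3, 7.75 and 4.12 and 3.72, 3.66, 4.25 and 2.63 CPM (-1.24 ± 0.44), with Control mouse 2 high. By edgeR none of the 4 passed over all genes with 4 EKO mice (lowest adjusted p 0.418) or without EKO mouse 1 (lowest adjusted p 0.16), while DESeq2 without EKO mouse 1 called Il1r1 (-0.62, adjusted p = 0.0478). Il1b, made mostly by myeloid cells, was high in 1 mouse of each group, 35.5 CPM in Control mouse 2 and 25.7 CPM in EKO mouse 3, and at most 4.86 CPM in the other 6. A list of 17 ligands and receptors of the IL-17, IL-20 and IL-6 families had 6 tested members, all receptor genes, and held no IL-6 family receptor. Of the 6, 4 had positive log2 fold changes, among them Il17re (0.33 ± 0.26) and Il17rc (0.30 ± 0.27), with a median of 0.21 and 0 at an unadjusted p under 0.05.

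Transcripts described as direct MCPIP1 targets were split in direction. Of 21 on the list, 15 had enough counts to be tested, 9 with positive and 6 with negative log2 fold changes, and the median was 0.10, between -0.08 and 0.38 with 1 library left out. In EMdKO against MKO 13 of the 15 were positive and 2 negative, with a median of 0.53, 5 higher and 1 lower at an unadjusted p under 0.05. Zc3h12a, the deleted gene, is itself on the list. It is counted among the negative members in both comparisons and was the 1 lower gene in EMdKO. Il6, Il12b, Il2, Ctla4, Cxcl2 and Cxcl3 were too low to test. Lcn2, an iron-scavenging antimicrobial protein gene, was 4.95, 28.5, 2.99 and 1.75 CPM in Control and 1.45, 31.5, 20.4 and 19.4 CPM in EKO (log2 fold change 0.95 ± 0.83), and its Control mouse 2 value lay within the range of EKO mice 2 to 4. Nfkbiz, an atypical NF-kB regulator, was 164, 437, 233 and 317 and 221, 366, 286 and 368 CPM (0.11 ± 0.27). At an unadjusted p under 0.05 the prolyl hydroxylase genes Egln1 (0.41 ± 0.13) and Egln3 (1.14 ± 0.47) were higher and Zc3h12a itself lower. Among 13 NF-kB subunits and feedback inhibitors, 6 were positive and 7 negative, and 0 reached an unadjusted p under 0.05.

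Of 19 chemokine genes, 15 had negative log2 fold changes and 6 were lower at an unadjusted p under 0.05. Their median was -0.49, and without Control mouse 2 it was 0.07. Cxcl10, an interferon-induced chemokine gene, was 14.2, 559, 13.1 and 8.37 CPM in Control and 27.6, 28.3, 22 and 23 CPM in EKO (log2 fold change -2.56 ± 1.01), so Control mouse 2 alone stood out. Ccl7 was 6.69, 72.6, 10.2 and 4.75 and 5.99, 9.25, 7.4 and 3.28 CPM (-1.84 ± 0.70), with the same mouse high. Cxcl12, Cxcl13, Cxcl14 and Ccl9 were the other 4. Cxcl14 was the member whose groups did not overlap. Type I interferon genes, also highest in Control mouse 2, summed to 152 to 1249 CPM in Control and 185 to 547 CPM in EKO, and 12 of 14 were negative. Their median of -0.26 turned to 0.74 without Control mouse 2 and to 0.54 with limma-voom on all libraries, weighted by quality.

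Alarmins and antimicrobial peptides warn of tissue damage or kill microbes. Of 13 tested, 11 had positive log2 fold changes, 6 reached an unadjusted p under 0.05 and the median was 1.33, or 0.67 without EKO mouse 3. Chil1, a chitinase-like protein gene, was 8.3, 11.9, 3.18 and 1 CPM in Control and 4.13, 120.2, 137 and 64.1 CPM in EKO (log2 fold change 3.75 ± 0.81). Defb14, a beta-defensin gene, was 1.24, 4.46, 1.49 and 1.25 and 0.723, 14.2, 22.3 and 18.7 CPM (2.75 ± 0.72), and Defb6, another one, 4.46, 6.19, 6.17 and 6.5 and 4.75, 42.7, 19.1 and 21.2 CPM (1.91 ± 0.56). In each case EKO mouse 1 was within or below the Control range. S100a8 and S100a9, the subunits of calprotectin, varied most between mice. S100a9 was 2.85, 24.7, 2.34 and 1.75 CPM in Control and 0.826, 79.6, 316 and 26.9 CPM in EKO (3.77 ± 1.13), and S100a8 5.45, 17.7, 1.03 and 0.125 and 0.413, 70.9, 247 and 15.2 CPM (3.81 ± 1.24), so both were highest in EKO mouse 3 and, among controls, in mouse 2. Chil1, Defb6, Defb14 and S100a9 rose without EKO mouse 1.
Neutrophils also make calprotectin, so their markers are given beside it. The 4 neutrophil markers with enough counts to be tested, of 12 listed, summed to 3.75 to 53.4 CPM in Control and 5.52 to 20.8 CPM in EKO, with the highest values in Control mouse 2 and EKO mouse 3. Of the 4, 1 had a positive and 3 a negative log2 fold change, and their median of -0.54 turned to 1.01 without Control mouse 2 and to 0.41 with limma-voom. Among the untested markers, Ly6g and Mpo had 0 counts in 7 of the 8 libraries and at most 1 count, and Elane and Ltf at most 3 counts. The other untested markers reached at most 14 counts for Ngp, 18 for Cd177, 23 for Mmp8 and 50 for Clec4e in a library, and the tested ones 24 for Cxcr2, 71 for Retnlg, 72 for Clec4d and 207 for Csf3r.

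Late cornified envelope genes encode proteins cross-linked into the shell of dead corneocytes. The kit held 6 of the 22 listed, and 5 had positive log2 fold changes with a median of 2.34. Lce1e was 47.9, 19.1, 44.7 and 66.6 CPM in Control and 42.5, 414, 343 and 442 CPM in EKO (log2 fold change 2.80 ± 0.60), Lce1g was 15.9, 5.18, 5.98 and 12.1 and 8.67, 147, 135 and 129 CPM (3.42 ± 0.75), and Lce1i and Lce1k had log2 fold changes of 2.19 ± 0.52 and 2.50 ± 0.65. These 4 were high in EKO mice 2 to 4 and within the Control range in EKO mouse 1, and they rose without it (adjusted p between 0.00198 and 0.0136). Lce1m gave another picture, with 93.3, 104, 254 and 515 CPM in Control and 141, 261, 243 and 288 CPM in EKO (-0.05 ± 0.43).

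The S100-fused proteins, which fill the outer cells, did not move as one. Hrnr (hornerin) was 96.2, 153, 161 and 182 CPM in Control and 92.8, 684, 659 and 602 CPM in EKO (log2 fold change 1.78 ± 0.42), Rptn (repetin) 53.3, 20.1, 23 and 16.6 and 9.19, 207, 492 and 138 CPM (2.91 ± 0.76), and Flg, which encodes profilaggrin, 2022, 1147, 1353 and 1081 and 1472, 4971, 6001 and 4686 CPM (1.61 ± 0.51). Hrnr and Rptn rose without EKO mouse 1 (adjusted p = 0.000299 and 0.00475), and Flg did not pass (adjusted p = 0.0892). Trichohyalin (Tchh), a protein of the inner root sheath of hair, was 14721, 3295, 682 and 3.5 CPM in Control and 2747, 275, 609 and 21.7 CPM in EKO, highest in Control mouse 1 and lowest in Control mouse 4, as was the hair shaft list. Tchhl1 and Crnn had the same high Control mouse 1. Small proline-rich genes, loricrin and involucrin had 6 of 7 positive members with a median of 0.62, or 0.36 without Control mouse 3 or EKO mouse 2, and 0 reached an unadjusted p under 0.05. Loricrin (Lor), the main protein of the cornified envelope, was 2713, 3313, 4957 and 7656 and 4329, 8634, 7004 and 11488 CPM (0.75 ± 0.37).

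Keratins marked the layers. Krt1, of the suprabasal layers, was 382, 571, 959.5 and 1278 CPM in Control and 458, 3889.9, 5036 and 4572 CPM in EKO (log2 fold change 2.13 ± 0.53), and its partner Krt10 was 694, 1231, 1262 and 2481 and 1055, 3336, 3518 and 3051 CPM (0.95 ± 0.39). Krt1 rose without EKO mouse 1 (adjusted p = 0.0016) and Krt10 did not pass (adjusted p = 0.16). Of 11 suprabasal keratins and desmosomal genes, 10 were positive with a median of 0.29, between 0.15 without EKO mouse 4 and 0.47 without EKO mouse 1. Among 14 basal keratinocyte genes 6 were positive, the median was -0.03, and Krt14 alone reached an unadjusted p under 0.05. Krt14 was 1011, 1078, 1201 and 1234 CPM in Control and 676, 2396, 4127 and 2328 CPM in EKO (1.07 ± 0.39, adjusted p = 0.608). Taken as a single value its difference had a two-sided exact permutation p of 0.1429. Its basal partner Krt5 was 2609.6, 2251, 2682 and 4099 and 2087, 5151, 5057 and 4369.8 CPM (0.52 ± 0.30), and Trp63, the transcription factor gene of basal keratinocytes, 835, 557, 690.0 and 779.6 and 662, 727, 679.8 and 791 CPM (-0.00 ± 0.21). The Krt14 promoter drives the Cre, and whether the counted stretch of Krt14 is shared with the transgene is not given in the labels. The stress keratin gene Krt16 was 80.1, 369.5, 39.1 and 29.9 and 21.6, 419, 1165 and 153 CPM (1.76 ± 0.89), highest in EKO mouse 3 and overlapping between groups. Its list of stress keratins and genes induced by wounding had 9 tested members, 7 with negative log2 fold changes, and at an unadjusted p under 0.05 it held 0 higher and 1 lower, the matrix metalloproteinase gene Mmp3 (-0.72 ± 0.31). Their median of -0.39 was 0.08 without Control mouse 2.

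**Figure D3:**
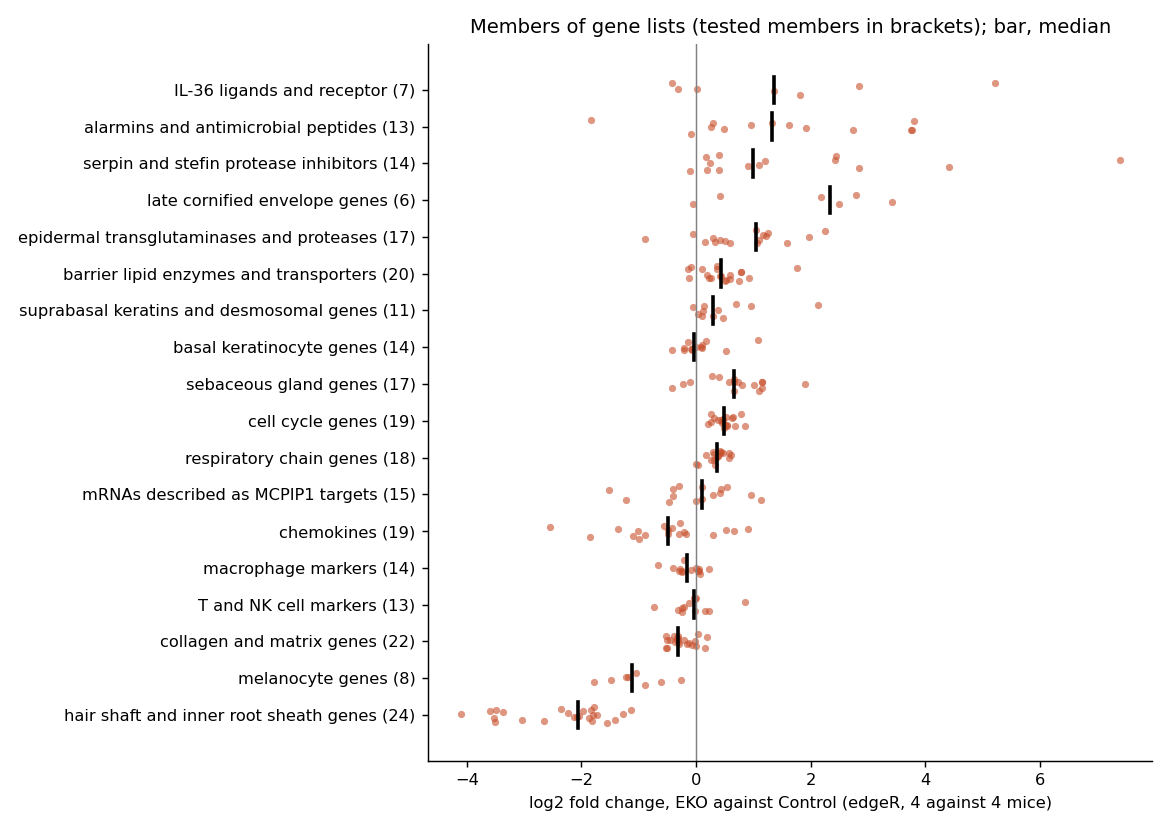
Log2 fold change (EKO over Control, edgeR, 4 against 4 mice) of each tested member of 18 gene lists, with a vertical bar at the list median and the number of tested members in brackets. The medians run from 2.34 for late cornified envelope genes to -2.06 for hair shaft genes, beside -0.03 over all tested genes.

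Transglutaminases build and proteases shed the cornified layer. Of 17 of them, 15 had positive log2 fold changes, 0 were called, 5 reached an unadjusted p under 0.05 and the median was 1.05, or 0.60 without EKO mouse 3. Klk8, a kallikrein-related peptidase gene, was 12.9, 13.2, 13.8 and 29 CPM in Control and 16.2, 59.7, 77.3 and 54.7 CPM in EKO (log2 fold change 1.59 ± 0.38), Klk12 was 1.36, 1.73, 1.59 and 2 and 0.516, 9.6, 10.4 and 5.65 CPM (1.97 ± 0.54), and Klk11 was 26.4, 52.1, 31.3 and 65 and 31.8, 125, 110.2 and 127 CPM (1.17 ± 0.37). Asprv1, whose product processes profilaggrin, was 86.4, 48.5, 69.3 and 120.1 and 45.6, 319, 213 and 195 CPM (1.25 ± 0.41). EKO mouse 1 was within or below the Control range for Klk8, Klk11, Klk12 and Asprv1, and these 4 rose without it.
Barrier lipid genes had 17 of 20 positive members, 6 at an unadjusted p under 0.05 and a median of 0.43. Lipk, an epidermal acid lipase gene, was 39.3, 22.9, 28.2 and 37.4 CPM in Control and 15.8, 154, 109.7 and 154 CPM in EKO (1.76 ± 0.46). Elovl4, which elongates very long chain fatty acids, was 439.8, 745, 722 and 633 and 335, 1563, 1287 and 1608 CPM (0.92 ± 0.38), and Slc27a4, a fatty acid transporter gene, 308, 158, 196 and 197 and 153, 411, 436 and 478 CPM (0.78 ± 0.29). In all 3, EKO mouse 1 was below every control and EKO mice 2 to 4 were above every control.

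Sebaceous gland genes, for the oily secretion of the hair follicle, had 14 of 17 positive members, 8 at an unadjusted p under 0.05 and a median of 0.67. Awat1, a wax ester synthase gene, was 3.84, 6.04, 14.9 and 10.2 CPM in Control and 4.34, 57.9, 36.5 and 32.8 CPM in EKO (log2 fold change 1.90 ± 0.56), and Elovl3 was 109, 57, 46.1 and 23.9 and 50.1, 145, 169.8 and 160.0 CPM (1.15 ± 0.44). Both were higher in EKO mice 2 to 4 than in any control. Scd1, a fatty acid desaturase gene, was 1342, 6851, 3546 and 3084 and 3557, 2283, 2411 and 2879 CPM (-0.41 ± 0.46) and did not share this pattern. Among 15 retinoid genes 6 were positive, with Aox4, a retinaldehyde oxidase gene, at 48.2, 25.5, 26 and 6.12 and 34.3, 109, 184 and 139 CPM (2.14 ± 0.54). Rbp2 (1.56 ± 0.46) and Rdh12 (0.75 ± 0.28) were also higher at an unadjusted p under 0.05, and Stra6, a receptor gene for retinol-binding protein, was lower (-1.93 ± 0.75), with 219 CPM in Control mouse 1 against 12.4 to 24.3 CPM in EKO.

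Averaging the members of each list per mouse showed how EKO mouse 1 sat in each. The mean log2 CPM of the IL-36 list was 4.33, 4.27, 4.17 and 4.38 in Control and 3.96, 6.19, 5.96 and 5.99 in EKO. That of the serpin and stefin list was 4.86, 5.15, 4.82 and 4.79 in Control and 4.21, 6.93, 7.22 and 6.77 in EKO. In both, EKO mouse 1 had the lowest value of the 8 and EKO mice 2 to 4 the 3 highest.

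**Figure D4:**
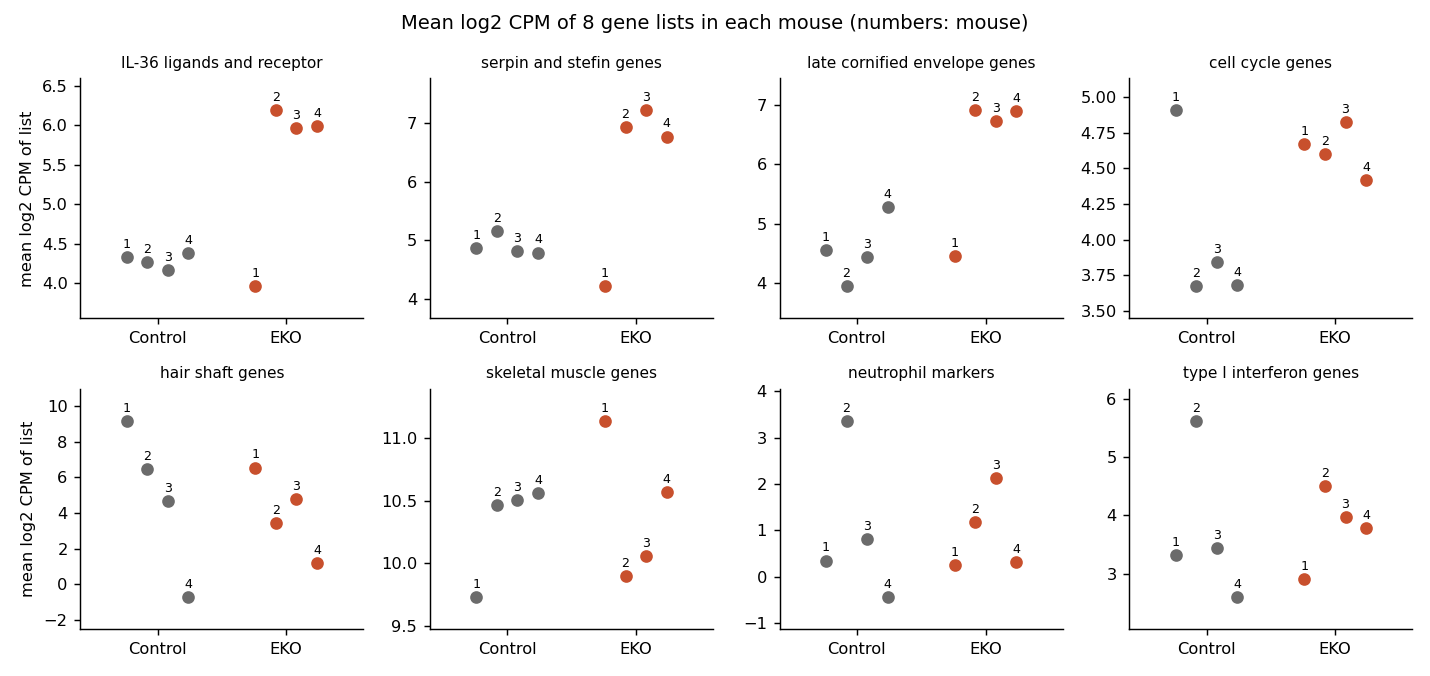
Mean log2 CPM of 8 gene lists in each mouse, numbered within Control (grey) and EKO (orange), with separate y axes. EKO mouse 1 lies at or below the controls for the IL-36 and serpin lists, within the Control range for late cornified envelope genes, and highest for skeletal muscle (11.14 against at most 10.57 in the other 7 mice).

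Cell cycle genes were positive in 19 of 19 cases, with a median of 0.49 and 3 at an unadjusted p under 0.05. Cdc20, whose product activates the ligase that starts anaphase, was 18.7, 6.33, 8.22 and 11.2 CPM in Control and 15.6, 25.7, 20.6 and 18.3 CPM in EKO (log2 fold change 0.85 ± 0.29). The list averaged 4.91, 3.67, 3.84 and 3.68 log2 CPM in Control and 4.67, 4.60, 4.83 and 4.42 in EKO, so EKO mouse 1 belonged with its group here and Control mouse 1 was the highest of all. Control mouse 1 also had the highest hair shaft level, whose part in this result was not tested. Without EKO mouse 1 the median was 0.49 and 0 of the 19 were called, and without Control mouse 1 the median was 0.85. In EMdKO against MKO the 19 genes were all positive, with a median of 0.425 and 2 higher at an unadjusted p under 0.05.
Respiratory chain genes were positive in 17 of 18 cases, with a median of 0.36, or 0.24 without EKO mouse 1, and for 7 of the 18 all EKO mice lay above all Control mice, beside 1.03% of all tested genes. Ndufa4, a respiratory chain subunit gene, was 203, 201, 208 and 221 CPM in Control and 257, 290.3, 347 and 344 CPM in EKO (0.57 ± 0.28, adjusted p = 0.736). EKO mouse 1, the library with the most skeletal muscle RNA, averaged the highest for this list as well. Among the 19 muscle genes 12 were positive with a median of 0.05. The part of muscle RNA in the respiratory chain values was not tested. In the EMdKO against MKO comparison 8 of the 18 respiratory chain genes were positive. Of the 19 muscle genes 3 were positive and 16 negative there, with a median of -0.66.

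Hair shaft and inner root sheath genes, which are made in growing follicles, were negative in 24 of 24 cases with a median of -2.06, although 2 reached an unadjusted p under 0.05. Krt33b, a hair keratin gene, was 1099.7, 131, 21.7 and 0 CPM in Control and 54.2, 4.8, 12.3 and 1.45 CPM in EKO, so every EKO value lay within the Control range, and Control mouse 1 was the highest of all. Melanocyte genes were negative in 8 of 8 cases with a median of -1.12, and Mlana was 23, 4.6, 4.58 and 4.12 and 7.12, 1.83, 7.04 and 1.45 CPM (log2 fold change -1.06 ± 0.60). Without Control mouse 1 the median was -0.05 for the hair genes and 0.04 for the melanocyte genes, and without EKO mouse 1 it was -3.46 and -1.71. By limma-voom the hair median was -0.23 and the melanocyte median -0.49. In EMdKO against MKO the 24 hair genes were all positive with a median of 3.37. There EMdKO mouse 3 had a list average of 6.28 log2 CPM, against at most 0.70 in the other EMdKO mice. MKO mouse 4 averaged 2.86, against -0.92 to -0.75 in the other MKO mice. How far that median rests on these mice was not tested.

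Immune cell and dermal genes are given by their direction. In the lists of this paragraph edgeR called 0 members, both with 4 EKO mice and without EKO mouse 1. DESeq2 with 4 EKO mice also called 0 of them. Macrophage markers were positive for 5 and negative for 9 of 14, summing to 788 to 1129.5 CPM in Control and 539.5 to 1056 CPM in EKO. T and NK cell markers were positive for 3 and negative for 10 of 13. Their median of -0.04 was -0.31 without Control mouse 1, 0.17 without Control mouse 2 and 0.10 without EKO mouse 1. Cd3e, a T cell receptor subunit gene, was 7.18, 23, 16.7 and 21.4 and 7.74, 14, 8.01 and 11.2 CPM (log2 fold change -0.74 ± 0.33). Cd8a went the other way, at 0.46 to 1.34 with 1 library left out. Dendritic and Langerhans cell markers summed to 405 to 471 CPM and 396 to 608 CPM. Antigen presentation genes were positive for 11 of 19, with Tap1, a peptide transporter gene, at 22.4, 32.4, 26.8 and 39.5 and 36.3, 67.3, 43.2 and 55.7 CPM (0.74 ± 0.25). Collagen and matrix genes were negative for 19 of 22 with a median of -0.32, or -0.18 without Control mouse 3, led by the cross-linking enzyme gene Loxl1 at 45.8, 71.1, 96.2 and 91.8 and 55.9, 54.4, 47.3 and 54.3 CPM (-0.53 ± 0.22). Adipocyte genes were negative for 11 of 15 with a median of -0.39, between -0.62 without EKO mouse 1 and -0.16 without EKO mouse 2.

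The genes with the smallest p were then read in the EMdKO and MKO mice, whose levels were not part of the comparison that chose them. These mice did enter the joint fit, and so the estimate of spread behind each p. Adding Krt14-Cre in LysM-Cre carriers gave 1 called gene, Zc3h12a (0.00734% of genes). At an unadjusted p under 0.05, 583 genes were higher (4.28%) and 429 lower (3.15%) in EMdKO than in MKO, and the 4 EMdKO mice lay wholly above the 4 MKO mice for 506 genes (3.71%) and below them for 311 (2.28%). Of all genes, 48.1% were positive and 51.9% negative. All 12 genes of the higher side had positive log2 fold changes in these other mice, with a median of 2.08. For 9 of the 12 the groups did not overlap, and 10 reached an unadjusted p under 0.05. Il1f6 was 0.47, 1.64, 1.31 and 0.878 CPM in MKO and 34.9, 30.4, 58.5 and 40.7 CPM in EMdKO (log2 fold change 5.21 ± 0.90, adjusted p = 0.0814). Stfa3 was 1.88, 9.98, 9.18 and 5.4 and 133, 71.4, 218 and 118 CPM (4.34 ± 0.93), and Slurp2 1.57, 11.6, 10.1 and 8.66 and 204, 39, 283 and 100.5 CPM (4.28 ± 0.81). Every EMdKO mouse lay above every MKO mouse in these 3 genes.

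Sizes could differ between the pairs of groups. Pitx3 was 4.86, 2.65, 2.98 and 3.39 CPM in MKO and 4.81, 4, 3.9 and 4.31 CPM in EMdKO (0.30 ± 0.23), and Fetub 2.35, 1.26, 2.26 and 1.38 and 3.98, 1.94, 7.61 and 2.42 CPM (1.15 ± 0.67), both overlapping. The difference between the effects had an unadjusted p under 0.05 for 2 of the 12, and by adjusted p edgeR called it for 0 of the 13633 genes, while DESeq2 called 3 and limma-voom 0. An unadjusted p under 0.05 for that difference was reached by 465 genes in edgeR. On the lower side, 12 of 12 genes were negative in EMdKO against MKO with a median of -0.48, and 6 did not overlap. Cxcl14 was 153, 282, 252 and 183 CPM in MKO and 104, 103, 165 and 175 CPM in EMdKO (-0.67 ± 0.23), and Rab3b 7.52, 11.4, 11.6 and 9.29 and 4.47, 2.42, 5.23 and 5.15 CPM (-1.20 ± 0.41).

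**Figure D5:**
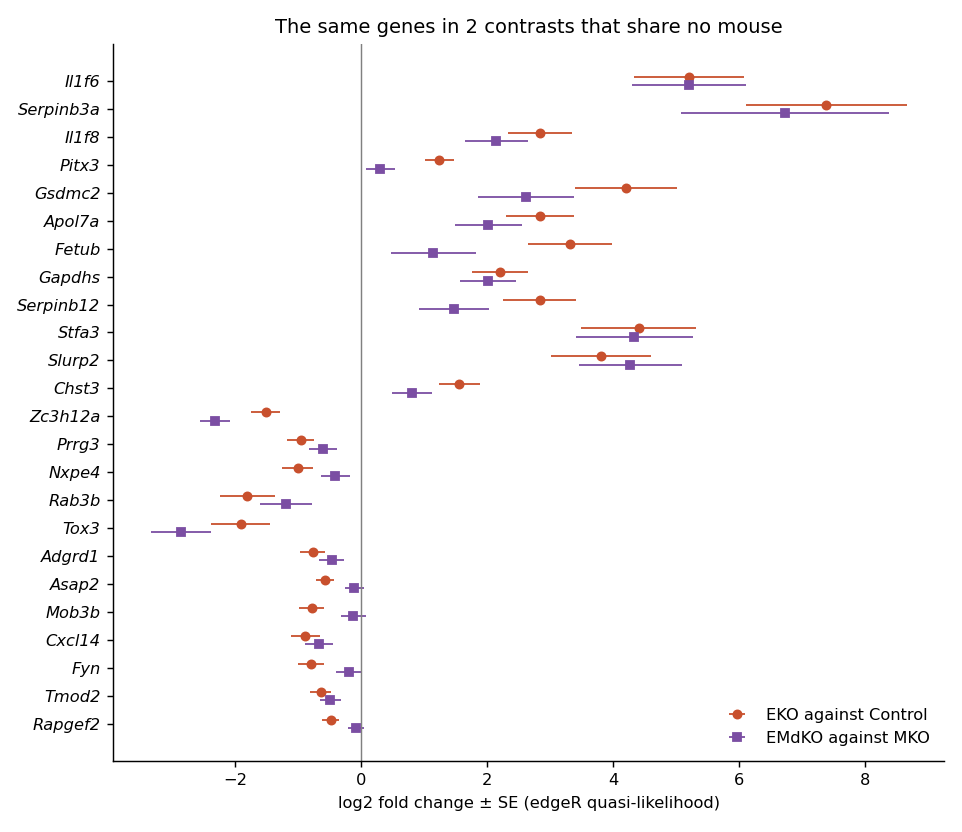
Log2 fold change ± SE (edgeR) of 24 genes in EKO over Control (orange circles, the comparison that chose them) and EMdKO over MKO (purple squares, other mice). The 12 genes at the top are positive and the 12 at the bottom negative in both, from 7.39 ± 1.28 and 6.73 ± 1.65 for Serpinb3a to -0.49 ± 0.13 and -0.08 ± 0.13 for Rapgef2.

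The same was done with the 113 genes that rose without EKO mouse 1. In EMdKO against MKO 111 of them were tested and all 111 were positive, with a median of 1.42, and 86 reached an unadjusted p under 0.05. For 88 of the 113 every EMdKO mouse lay above every MKO mouse, beside 3.71% of all tested genes. EKO mouse 1 itself lay above all controls for 5 of the 113 (4.42%), within their range for 65 (57.5%) and below all of them for 43 (38.1%). Over all tested genes it lay above the controls for 15.2%, within for 69.7% and below for 15.1%. Of the 14 genes that fell without it, all 14 were negative in EMdKO against MKO with a median of -0.46, and for 7 the groups did not overlap. EKO mouse 1 lay below all controls for 5 of these 14 and within their range for 9.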

How the data were processed

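Total RNA from snap-frozen whole skin, isolated with Fenozol, was made into libraries with the Ion AmpliSeq Transcriptome Mouse Gene Expression Kit (labels' protocols). Raw read counts for 23930 targets were deposited, and the submitters' processing notes name HTSeq 0.6.0 and DESeq2 1.18.1 without their roles. The aligner and genome build are not given in the sources used here. The 5 HTSeq summary lines of each file (3.655 to 4.8% of reads in the 8 libraries) were left out. Symbols came from a RefSeq table of GRCm38.p6 (22448 targets) and GENCODE vM21 (114), and 1368 targets had none. The 2 most similar libraries still differed by a chi-square of 15.25 per degree of freedom.

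Counts of all 16 libraries were fitted with the quasi-likelihood method of edgeR 4.0.16 under R 4.3.3 (TMM, filterByExpr, 1 mean per group, 12 residual degrees of freedom, biological coefficient of variation 0.31) and tested with Benjamini-Hochberg adjustment at 0.05. A standard error is the absolute log2 fold change over the square root of F. Log2 CPM used a prior count of 2. Alternatives were DESeq2 1.42.0, limma-voom (limma 3.58.1), RLE scaling, no filter, a filter of CPM 1 in 4 libraries, only the groups compared, muscle or hair covariates, the mouse number as a block and each library left out. The limma-voom fits used voomWithQualityWeights, which gives each library its own weight. DESeq2 and limma-voom without EKO mouse 1 were added after the data were seen. The fits were also run on simulated counts, with a common dispersion for all genes and the same effect in every EKO mouse. That simulation held no deviating mouse, so it cannot speak for how such a mouse changes the calls. Further software was python 3.11.15 with scipy 1.17.1, pandas 2.3.3, numpy 2.4.6 and matplotlib 3.10.9.

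The comparison and the 42 gene lists were chosen with earlier results of these data known. Named genes were Zc3h12a, Krt14, the 12 genes of smallest p in each direction (official symbol, mean log2 CPM of at least 0), up to 3 members of smallest p per list, and without EKO mouse 1 the 8 largest called changes in each direction (mean log2 CPM of at least 1). Other list members are named to show their spread and were chosen after their values were seen. Lists are described by counts and medians, with no test.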

Additional observations from a re-analysis of the deposited data

Results flagged for a closer look

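In 290 groups of 4 mice (145 named genes in EKO and in Control), 26 held a mouse whose gap to its nearest neighbour, divided by the group's range on the log2 CPM scale, passed Dixon's critical value at the 95% level. Chance alone gives about 1 group in 20 when genes are unselected and groups independent. Neither holds here, because the genes were named from these same data, some of them by leaving out EKO mouse 1. The counts of flags are therefore a description only. EKO mouse 1 was the outlying mouse in 19 of the 26 groups, low in 18 and high in 1.

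EKO mouse 1 was low for the cytokine genes Il1f6 (0.969), Il1f9 (0.853) and Il1a (0.866), for Stfa3 (0.92), Slurp2 (0.839) and the defensin gene Defb14 (0.859). It was also low for the epidermal structural genes Krt1 (0.892), Krt10 (0.882), Hrnr (0.936), Lce1e (0.892), Lce1g (0.953) and Lce1i (0.859), and for the peptidase gene Klk11 (0.898). The lipid genes Lipk (0.851) and Slc27a4 (0.867) and the sebaceous gland gene Ldhb (0.901) were flagged in the same mouse. Away from the epidermis it was low for the chemokine receptor gene Cxcr2 (0.845) and the muscle myosin gene Myh1 (0.913), although its summed muscle level was the highest of the 8. It was high for Asap2 (0.906).

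Control mice were flagged in 7 groups. Control mouse 4 was low for Il1f8 (0.862) and high for Lce1i (0.898) and Klk8 (0.913). Control mouse 2 was high for Defb14 (0.861) and low for the respiratory chain gene Uqcrfs1 (0.942), and Control mouse 1 was low for Defb6 (0.86) and high for the melanocyte gene Mlana (0.938).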

How the results depend on the processing

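For EKO vs Control, genes called were 0 with edgeR on all libraries, 51 with DESeq2, 4 with limma-voom, 8 with a muscle covariate, 3 with no filter on low counts, and 73 without EKO mouse 1 on the compared groups only. They numbered 312 with DESeq2 and 333 with limma-voom when EKO mouse 1 was left out, both added after the data were seen. With each library left out in turn the count lay between 0 and 127. It was 127 without EKO mouse 1, 1 without MKO mouse 1 and 0 otherwise. RLE scaling, the stricter filter, the hair covariate and the compared groups alone also gave 0. For EMdKO vs MKO, genes called were 1, against 146 with DESeq2, 8 with limma-voom, 8 with a muscle covariate, 2 with a hair covariate, 9 with no filter and 90 on the compared groups alone, or 257 with DESeq2 and 185 with limma-voom without EKO mouse 1. Leaving out each library gave 1 to 95, with 95 without EKO mouse 1, 3 without Control mouse 4 and 2 without Control mouse 1. For the difference of the Krt14-Cre effects, genes called were 0, except 3 with DESeq2 and 4 with DESeq2 without EKO mouse 1. The cause of these differences in count was not tested.

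For Zc3h12a, EKO vs Control, the log2 fold change of -1.52 (adjusted p = 0.082) passed with DESeq2 (-1.51), limma-voom (-1.78), a muscle covariate (-1.51), no filter (-1.50), without MKO mouse 1 (-1.51), without EKO mouse 1 (-1.70), and without EKO mouse 1 on the compared groups only (-1.69), with DESeq2 (-1.70) and with limma-voom (-1.86). Adjusted p ranged from 1.40e-08 to 0.806 over its alternatives, and with each library left out the fold change lay between -1.70 and -1.40. Of 145 named genes, 5 turned from negative to positive with limma-voom and kept that sign with limma-voom without EKO mouse 1, at 0.25 and 0.32 for Tgfa, 0.042 and 0.12 for Csf3r, 0.70 and 0.82 for Rsad2, 0.47 and 0.63 for Mx1 and 0.33 and 0.52 for Oasl1. Leaving out each library gave ranges of -0.62 to 0.093 for Tgfa, -1.22 to 0.44 for Csf3r, -1.71 to 0.15 for Retnlg, -2.54 to 1.11 for Rsad2, -1.54 to 0.67 for Mx1 and -1.64 to 0.53 for Oasl1. Their sign turned without Control mouse 2, or for Tgfa without Control mouse 1.

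Whether the mouse numbers pair the animals cannot be told from these data. Deviations of same-numbered EKO and Control mice correlated by 0.28, -0.1, 0 and 0.61, and the labels name no shared litter or batch. The values for mouse 1 and mouse 4 were the highest of any EKO and Control pair, but not every mouse correlated best with its own number. With the number as a replicate block, 0 genes were called for EKO vs Control, 1 for EMdKO vs MKO and 0 for the difference, and Zc3h12a had a log2 fold change of -1.50 (adjusted p = 0.297).

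The count of called genes changed with EKO mouse 1 and also with the tool and the libraries fitted. Depth limits genes such as Il6 and Il12b, which were too low to test. Fold changes of Serpinb3a and Gsdmc2 rest on at most 3 and 8 counts in a control library, and that of Tox3 on few counts in the EKO libraries.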
